A study of Macaca mulatta with 12 samples.

Results

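Genes of the intracellular calcium store were followed through the layers of the lateral geniculate nucleus (LGN), the thalamic relay between retina and visual cortex. The set held 10 genes, chosen by name: calsequestrin CASQ2, the ryanodine receptors RYR1, RYR2 and RYR3, the inositol trisphosphate (IP3) receptors ITPR1, ITPR2 and ITPR3, the reticulum calcium pumps ATP2A2 and ATP2A3, and the pump inhibitor PLN. All 25 probe sets that named exactly 1 of these symbols were taken, of 22215 probe sets other than controls. CASQ2 and ITPR1 had been picked for opposite differences between cell classes, so their class differences are given as a description, with no test.

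The 12 arrays were 6 deprived and 6 non-deprived samples of total RNA, 1 per layer and hemisphere, from rhesus macaques with monocular deprivation. Deprived arrays were layers 2, 3 and 5 of the ipsilateral LGN and layers 1, 4 and 6 of the contralateral LGN, and each non-deprived array was the same layer on the other side. Layers 1 and 2 are magnocellular (4 arrays) and layers 3 to 6 parvocellular (8 arrays). The non-deprived layers also came from deprived animals and are no sample of normal vision, and the animals' age, the length of the deprivation and the number of animals are not given in the sources used here. Arrays that share an animal are not separate replicates. The p-values measure the spread between arrays left after the fitted deprivation, cell class and hemisphere differences, and that spread may be partly technical.

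Neurons keep calcium inside the endoplasmic reticulum and release it on demand. ATP2A pumps, also called SERCA, load the store, and phospholamban (PLN) restrains the pump ATP2A2. Calsequestrin binds calcium inside the store with low affinity and high capacity. IP3 receptors open when phospholipase C coupled receptors make IP3, and ryanodine receptors open when calcium itself rises in the cytosol. CASQ2, RYR2 and PLN are best known from heart muscle, RYR1 from skeletal muscle, and ITPR1 as the main IP3 receptor of neurons.

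Values are scaled intensities of probe sets on a human array, to which macaque RNA may bind less well, and no probe set was compared with another in level. The arrays' median intensities ranged from 411.5 to 666.5. One array was unlike the rest: the deprived layer 2 of the ipsilateral LGN correlated with the others at 0.868 on average, where the other 11 had 0.897 to 0.934. The GAPDH 3'/5' control, a measure of RNA degradation, stood at 9.38 there, at 11.0 on the deprived ipsilateral layer 5 and at 2.21 to 5.65 elsewhere. The class labels were checked on the neurofilament genes NEFM, NEFH and NEFL, which mark magnocellular neurons. All 6 of their tested probe sets had positive differences and 2 passed (limma, NEFM adjusted p = 0.003, NEFH adjusted p = 0.042). Their summed intensity was 242890 to 342278 in magnocellular arrays and 136715 to 238420 in parvocellular arrays, with no overlap.

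CASQ2, the only store buffer in the set, was low in magnocellular layers. Its single probe set (207317_s_at) read 1353, 735, 222 and 732 in the magnocellular arrays (deprived layer 1, non-deprived layer 1, deprived layer 2 and non-deprived layer 2), against 1430 at the lowest, 2557 at the median and 2751 at the highest in the 8 parvocellular arrays. No magnocellular array reached the lowest parvocellular one, which was the non-deprived layer 4. The log2 difference was -1.88 ± 0.30 (standard error), or 3.68-fold lower in magnocellular layers. The lowest value, 222, was on the array that stood apart, and without it the log2 difference was -1.39, or 2.63-fold lower. Within the ipsilateral LGN it was -2.34 and within the contralateral LGN -1.42.

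By layer type and deprivation, CASQ2 averaged 788 ± 800 in deprived magnocellular layers and 734 ± 2 in non-deprived magnocellular layers (SD, n = 2 each). It averaged 2440.4 ± 339.9 in deprived parvocellular layers and 2324 ± 603 in non-deprived parvocellular layers (SD, n = 4 each). Within each class the deprived and non-deprived means lay closer together than the SD of either deprived group, and the gap lay between the classes.

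ITPR1, the IP3 receptor that opens the store downstream of phospholipase C, had the opposite order. Its probe set 203710_at read 982, 634, 1361 and 795 in the magnocellular arrays, listed in the same order as for CASQ2, against 219 at the lowest, 369 at the median and 633 at the highest in the parvocellular arrays. The groups did not overlap, but only just: the lowest magnocellular value was 633.8, in non-deprived layer 1, and the highest parvocellular value was 632.6, in deprived layer 3. The log2 difference was 1.28 ± 0.30, or 2.43-fold higher in magnocellular layers. It was 1.12 within the ipsilateral LGN and 1.44 within the contralateral LGN.

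The other probe sets of ITPR1 had a mean log2 intensity below the filter, and both were higher in magnocellular layers. Probe set 211323_s_at read 1566, 1154, 765 and 1240.2 in the same 4 magnocellular arrays, against 87.7 at the lowest, 358 at the median and 451 at the highest in parvocellular arrays, again with no overlap. Probe set 216944_s_at read 803, 512, 346 and 637 in magnocellular arrays and from 147 to 575 in parvocellular arrays, so these overlapped. Without the filter their log2 differences were 1.99 and 0.60. The filter kept probe sets whose mean log2 intensity reached the median of the array, 8.92. ITPR1 203710_at lay just inside it at 8.97, and RYR1 at 8.84 and ITPR1 211323_s_at at 8.83 lay just outside.

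**Figure D1:**
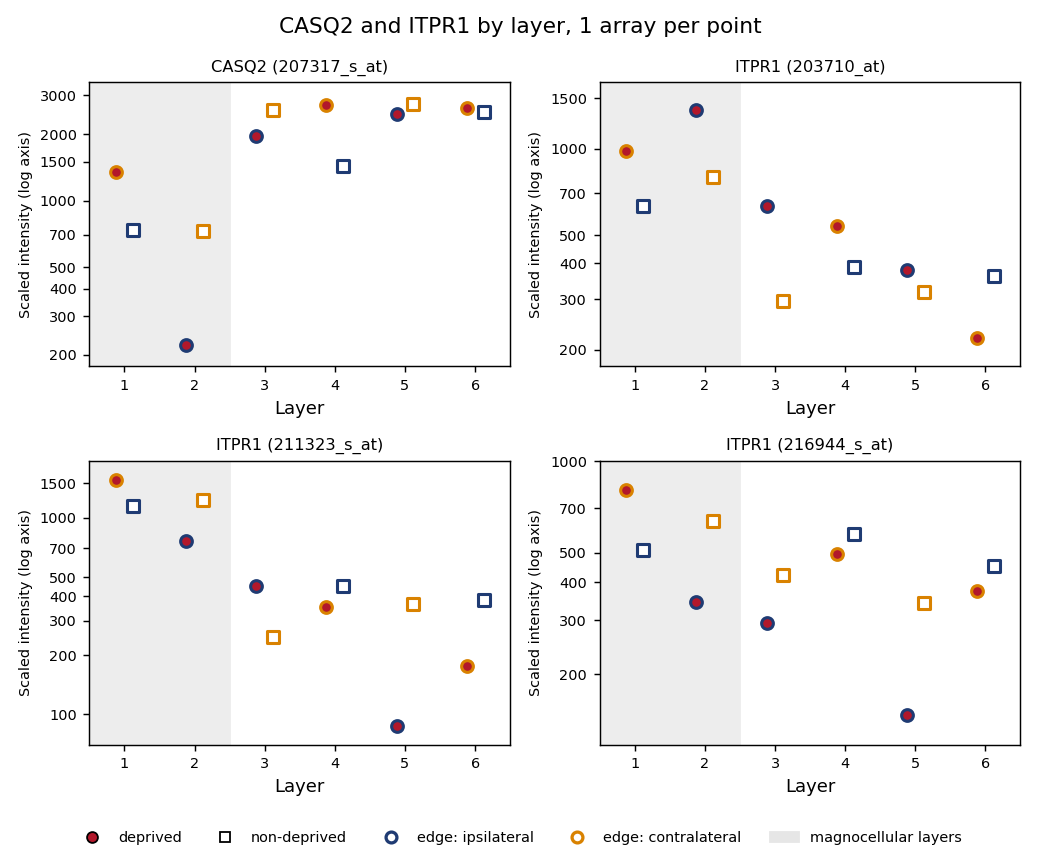
Scaled intensity (log axis) of CASQ2 and the 3 ITPR1 probe sets in layers 1 to 6, 1 point per array, with filled circles for deprived and open squares for non-deprived arrays, edge colour for hemisphere and grey shading for magnocellular layers. CASQ2 is at 1353 or below in every magnocellular array and at 1430 or above in every parvocellular one, while ITPR1 203710_at runs the other way, at 634 to 1361 against 219 to 633.

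Of the 8 member probe sets that passed the filter, CASQ2 and ITPR1 203710_at were the 2 whose class groups did not overlap, which is how these genes were picked. ITPR1 203710_at averaged 943 in magnocellular and 391 in parvocellular arrays, and it passed the filter only through the magnocellular ones. The 2 of 8 is therefore no test against the share of all probe sets. Over all 11105 probe sets tested, 1.5% did not overlap, 0.558% with higher and 0.946% with lower magnocellular values. Across the 12 arrays the log2 values of the pair had a Pearson correlation of -0.80, which is a description, since both genes were chosen for the class difference that the arrays share.

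Markers of other cell types were read in the class comparison too. Of the oligodendrocyte markers 10 of 11 tested probe sets were negative in magnocellular against parvocellular layers and 2 passed, where 41.5% of all probe sets tested were positive (MAG, limma adjusted p = 0.018; MBP, adjusted p = 0.033). Their summed intensity was 64059 to 92809 in magnocellular and 90543 to 162395 in parvocellular arrays. Of the striated muscle markers 9 of 16 genes on the array were tested and 9 of 11 probe sets were negative. The positive ones were TNNI3 (0.36 ± 0.20) and 1 ACTN2 probe set (0.26 ± 0.22), and neither passed. The other tested probe sets of ACTN2 had -0.039 and -0.23. MYL2, a myosin light chain, passed (-2.09 ± 0.26, limma adjusted p = 0.001), and the summed intensity was 10815 to 13942 in magnocellular and 11942 to 18211 in parvocellular arrays. Of the 8 muscle probe sets below the filter, 5 had a higher and 3 a lower mean in magnocellular layers. MYL1 averaged 158 in magnocellular and 482 in parvocellular layers, TNNC2 273 and 487, and ACTA1 67.7 and 128. MYH6, TNNC1 and CKM averaged 54.9, 54.5 and 67.2 in magnocellular layers and 44.5, 28.4 and 40.9 in parvocellular layers, and the means of these 3 and of ACTA1 over all arrays were below the floor of 110.8. Also higher in magnocellular layers were TNNT1 (184 against 121) and the ACTN2 probe set below the filter (378 against 273). The means of both over all arrays were above the floor. Astrocyte markers had 3 of 8 probe sets positive and none past the threshold (limma), with 2 positive at an unadjusted p under 0.05. Relay neuron markers had 4 of 12 positive, with 1 higher and 5 lower by that unadjusted rule, beside 5.24% and 9.35% of all. Inhibitory neuron markers had 2 of 3 positive (GAD1, 0.61 ± 0.19), smooth muscle and mural 4 of 7, endothelial 1 of 4, microglial 1 of 3 and koniocellular 1 of 5. None of these passed. The part of these cell types in the CASQ2 and ITPR1 differences was not tested, and in tissue RNA fewer cells of a type and less RNA per cell cannot be told apart. The ACTB 3'/5' control stood at 46.4 ± 15.1 in magnocellular (SD, n = 4) and 25.7 ± 8.78 in parvocellular arrays (n = 8). With that ratio as a covariate the log2 class difference was -1.48 for CASQ2 and 1.07 for ITPR1 203710_at.

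Among all tested genes, those whose log2 values followed CASQ2 most closely over the 12 arrays were PRRC2B (Pearson r = 0.918), PRKAB1 (0.915), CIB1 (0.913), SETDB1 (0.912) and DDX17 (0.908). PRKAB1 is a subunit of the energy sensor AMPK, CIB1 a calcium-binding protein, SETDB1 a histone methyltransferase and DDX17 an RNA helicase. All 5 were lower in magnocellular layers, with log2 differences from -0.60 (CIB1) to -1.52 (PRRC2B). ITPR1 203710_at was followed most closely by CDK2AP1 (0.969), the zinc transporter SLC30A5 (0.881), CAMLG (0.868), the glial glutamate transporter SLC1A3 (0.865) and the potassium channel KCND3 (0.858). Their log2 class differences were all positive, from 0.43 (CAMLG) to 0.97 (SLC1A3). These correlations share the class difference and the array effects, and carry no test.

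The other 4 genes with a tested probe set, the release channels RYR2, RYR3 and ITPR2 and the pump ATP2A2, showed no class difference past the threshold. Of their 6 tested probe sets 0 passed (limma, adjusted p under 0.05) and 0 had an unadjusted p under 0.05, where 0.72% and 14.6% of all 11105 probe sets did. RYR3 (206306_at) averaged 3163 ± 475 in magnocellular and 3161 ± 677 in parvocellular layers (SD, n = 4 and 8; log2 difference 0.02 ± 0.19, 95% interval -0.38 to 0.41). Adjusted p for these 6 ran from 0.445 for ATP2A2 212361_s_at to 0.981 for RYR3.

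ATP2A2, the widely expressed SERCA pump, was read by 3 probe sets that did not run together. Probe set 212361_s_at read 39259.6, 28188, 21594 and 29202 in magnocellular arrays (deprived layer 1, non-deprived layer 1, deprived layer 2, non-deprived layer 2), against 16829 at the lowest, 21095 at the median and 34811 at the highest in parvocellular arrays. Those ranges overlapped, and the log2 difference was 0.33 ± 0.19 (adjusted p = 0.445). Probe set 209186_at had -0.22 ± 0.21, with 2484 ± 641 in magnocellular and 2886 ± 690 in parvocellular layers. Probe set 212362_at, below the filter, had -0.75 without it (limma unadjusted p = 0.027, adjusted p = 0.421). The 3 probe sets thus gave no common direction. ITPR2 (202661_at), an IP3 receptor also found in glia, had -0.29 ± 0.28, at 650.5 ± 284 in magnocellular and 755 ± 148 in parvocellular layers.

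**Figure D2:**
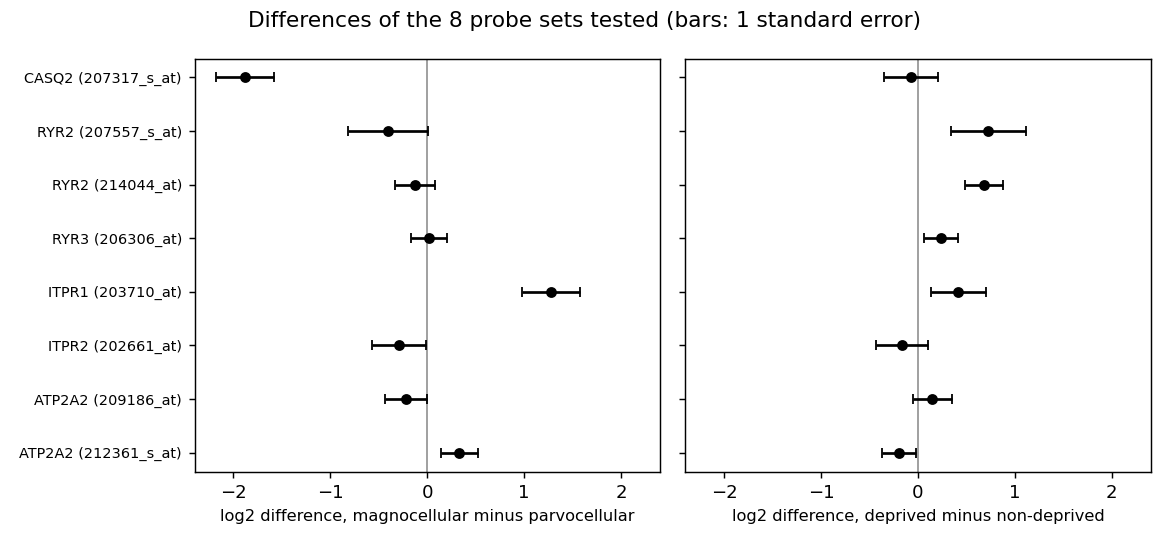
Log2 differences of the 8 member probe sets that passed the filter, magnocellular minus parvocellular on the left and deprived minus non-deprived on the right, with bars of 1 standard error. CASQ2 (-1.88) and ITPR1 (1.28) lie far from 0 by class, for which they were picked, and both RYR2 probe sets (0.73 and 0.68) are the largest by deprivation.

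No member differed with deprivation past the threshold. Of the 8 tested probe sets 0 had an adjusted p under 0.05 and 1 an unadjusted p under 0.05 (limma), against 0.063% and 12% of all probe sets tested. Their median log2 difference was 0.19, with 5 positive and 3 negative, beside a median of 0.03 and 53.7% positive over all probe sets tested. None had the same sign in all 6 layers, as 5.16% of all probe sets did.

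RYR2, the ryanodine receptor of heart and brain, had the largest differences of the 8 tested probe sets, though ITPR3 201187_s_at (1.09) and ITPR2 211360_s_at (0.74), both below the filter, had larger ones without it. Its probe set 214044_at read 2454 at the lowest, 3985 at the median and 5277 at the highest in deprived layers, against 1851, 2472 and 3112 in non-deprived layers. The means were 4027 ± 1052 and 2477 ± 491 in deprived and non-deprived layers (SD, n = 6 each), a log2 difference of 0.68 ± 0.20 or 1.60-fold, with a 95% interval of 0.26 to 1.10. The unadjusted p was 0.003 and the adjusted p 0.19, so it did not pass (limma). The deprived sample was higher in 5 of 6 layers.

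The exception was layer 2, where the deprived array, the one that stood apart, read 2454 and the non-deprived array 3112. The other 5 deprived arrays, at 3392 to 5277, all lay above every non-deprived array. In layers 1 and 3 the deprived arrays read 5070 and 5277, against 1851 and 2696 in the non-deprived arrays of those layers. Without the array that stood apart the log2 difference was 0.82 (adjusted p = 0.166). It was 0.74 within the ipsilateral LGN, 0.62 within the contralateral LGN and 0.74 in parvocellular layers alone, and the adjusted p ran from 0.111 to 0.481 when single arrays were left out, in parvocellular layers alone or in the contralateral LGN, and was 0.789 in the ipsilateral LGN.

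The second RYR2 probe set, 207557_s_at, had a difference of 0.73 ± 0.39 (adjusted p = 0.477), also higher in 5 of 6 layers but resting on layers 1 and 2. It read 762 and 2264 in deprived layers 1 and 2, against 181.5 and 569 in the non-deprived arrays of those layers. In parvocellular layers it averaged 899 ± 189 in deprived and 867 ± 245 in non-deprived arrays (SD, n = 4 each). The difference between classes in the deprivation effect was 1.96 ± 0.68 (unadjusted p = 0.011, adjusted p = 0.433, limma), which did not pass. Leaving out the deprived layer 2 gave a deprivation difference of 0.33 and an interaction of 1.08. Leaving out layer 1 of the non-deprived arrays gave 0.29 and 0.90, and parvocellular layers alone gave a deprivation difference of 0.075. Over the 12 arrays the 2 RYR2 probe sets had a Pearson correlation of 0.24.

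With deprivation, astrocyte markers had 8 of 8 tested probe sets positive and oligodendrocyte markers 11 of 11, none past the threshold and 2 and 3 at an unadjusted p under 0.05 (limma). Over all probe sets tested 53.7% were positive, and 5.93% were higher and 6.07% lower at an unadjusted p under 0.05. Summed astrocyte intensity was 76707 to 122085 in deprived and 51868 to 91187 in non-deprived arrays, and summed oligodendrocyte intensity was 67166 to 162395 in deprived and 64059 to 110003 in non-deprived arrays. Koniocellular markers had 5 of 5 probe sets positive, endothelial markers 4 of 4, and microglial and inhibitory neuron markers 3 of 3 each, while the neurofilament probe sets had 1 of 6 positive and 3 lower at an unadjusted p under 0.05. Striated muscle markers had 5 of 11 positive, smooth muscle and mural markers 4 of 7 and relay neuron markers 4 of 12. By the unadjusted rule striated muscle had 1 higher and 1 lower, smooth muscle and mural 2 higher, and relay neurons 2 lower. No marker list had a probe set past the threshold with deprivation, and the part of these cell types in the RYR2 difference was not tested.

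The genes closest to RYR2 214044_at over the 12 arrays were MRTFB (Pearson r = 0.922), RDX (0.894), FNBP1L (0.885), PLCB1 (0.876) and RALYL (0.870). MRTFB is a coactivator of serum response factor, RDX links actin to the membrane, and PLCB1 is a phospholipase C that makes IP3. Their log2 deprivation differences were all positive, from 0.49 (RDX) to 1.04 (FNBP1L). Genes picked for following RYR2 over these arrays share its deprivation difference and the array effects, so these signs carry no test.

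The other tested members had differences with deprivation between -0.20 and 0.42. RYR3, the ryanodine receptor best known from brain and smooth muscle, averaged 3407 ± 477 in deprived and 2917 ± 637 in non-deprived layers (SD, n = 6 each), a log2 difference of 0.24 ± 0.18 (limma adjusted p = 0.641). In layer 5 it read 3747 deprived and 2194.5 non-deprived, while in layers 2, 4 and 6 the deprived array was the lower one. CASQ2 averaged 1889.5 ± 962 in deprived and 1794 ± 945 in non-deprived layers, a difference of -0.070 ± 0.28 (95% interval -0.66 to 0.52), with the deprived array higher in 3 of 6 layers. Its sign turned without the array that stood apart (0.25).

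ITPR1 203710_at averaged 685 ± 420 in deprived and 465 ± 202 in non-deprived layers, a difference of 0.42 ± 0.28 (adjusted p = 0.599), with the deprived array higher in 5 of 6 layers. Its other probe sets ran the other way without the filter, at -0.43 for 211323_s_at and -0.41 for 216944_s_at, with the deprived array higher in 2 and 1 of 6 layers. The 3 probe sets of ITPR1 shared a direction by cell class, for which the gene was picked, and not by deprivation. ITPR2 202661_at had -0.16 ± 0.27, and ATP2A2 had 0.15 ± 0.20 for 209186_at and -0.20 ± 0.18 for 212361_s_at, all with an adjusted p of 0.721 or above.

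**Figure D3:**
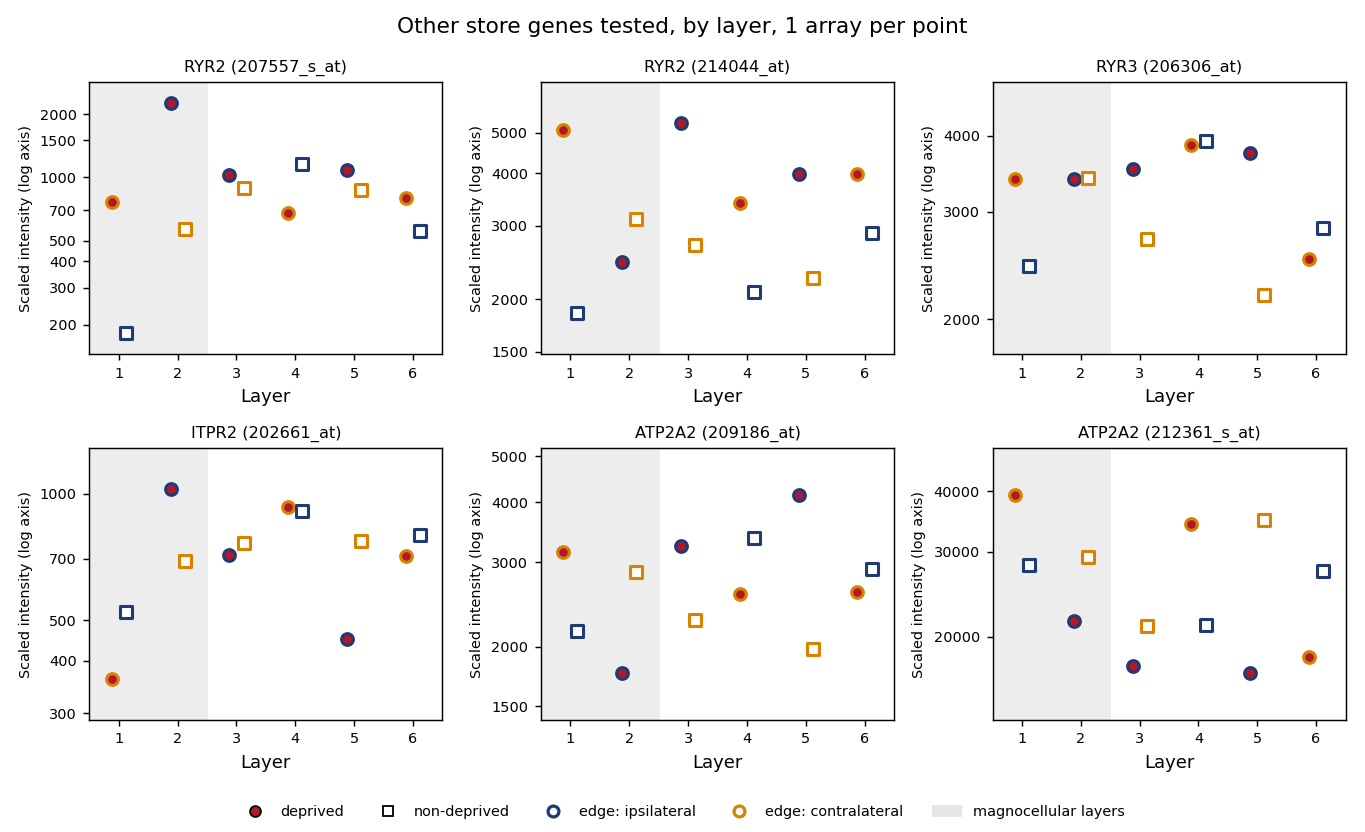
Scaled intensity (log axis) of the tested probe sets of RYR2, RYR3, ITPR2 and ATP2A2 in layers 1 to 6, 1 point per array, drawn as for CASQ2 and ITPR1. In RYR2 214044_at the filled deprived circles lie above the open squares in 5 of 6 layers, with layer 2 the exception, and RYR2 207557_s_at has both its highest value (2264) and its lowest (181.5) in magnocellular layers.

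No member's deprivation effect differed between cell classes past the threshold: 0 of 8 had an adjusted p under 0.05 and 1 an unadjusted p under 0.05 (RYR2 207557_s_at), against 0% and 8.73% of all probe sets (limma). Between hemispheres 0 of 8 passed and 2 had an unadjusted p under 0.05, against 0.108% and 20.1% of all probe sets. One was CASQ2, at 1555 ± 937 ipsilaterally against 2128 ± 865 contralaterally (SD, n = 6 each; log2 difference -0.69 ± 0.28, adjusted p = 0.192). The other was ATP2A2 212361_s_at, at 22077 ± 4798 ipsilaterally and 29449 ± 8318 contralaterally (-0.39 ± 0.18, adjusted p = 0.235). The ipsilateral CASQ2 values include the 222 of the array that stood apart. Ipsilateral arrays also had a GAPDH 3'/5' ratio of 6.14 ± 3.37 against 3.20 ± 0.72 contralaterally (SD), and median intensities of 586 ± 83 against 468 ± 40. The part of these in the hemisphere differences was not tested.

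The other 17 member probe sets lay below the filter, among them all those of RYR1, ITPR3, ATP2A3 and PLN. Of ATP2A3, the SERCA pump of blood and epithelial cells, 207521_s_at and 213042_s_at were under the floor of 110.8 on 11 of 12 arrays, as was 204938_s_at of PLN. The exception on all 3 was the deprived ipsilateral layer 2, the array that stood apart, at 269, 133 and 119.8. On that array only 6.26% of all probe sets were under the floor, against 16.6% to 24.7% on the others. Its higher values here are thus not particular to these genes. The other probe sets of these genes reached higher: 207522_s_at of ATP2A3 ran from 64.0 to 718.5 and 213036_x_at from 94.6 to 489, and 204939_s_at of PLN ran from 18.9 to 393 and 204940_at from 20.3 to 314. Of ITPR3, the IP3 receptor of epithelia and taste cells, 201189_s_at was under the floor on 7 arrays, while 201187_s_at read from 130.3 to 1157.

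Without the filter none of these 17 passed with deprivation, and 2 had an unadjusted p under 0.05, where 0.0045% and 8.75% of 22215 probe sets did (limma). They were ITPR3 201187_s_at (log2 difference 1.09, adjusted p = 0.544) and ATP2A2 212362_at (0.71, adjusted p = 0.504), each higher in the deprived array of 5 of 6 layers. By class, leaving out ITPR1, none of 15 passed and 3 had an unadjusted p under 0.05, beside 0.108% and 10.2% of all. These were RYR1 (1.15, adjusted p = 0.466), ATP2A2 212362_at and PLN 204939_s_at (-0.87, adjusted p = 0.478). RYR1 (205485_at) read 486.5, 1628, 488 and 961 in magnocellular arrays (deprived layer 1, non-deprived layer 1, deprived layer 2, non-deprived layer 2) and from 127 to 656 in parvocellular arrays, so the groups overlapped and the 2 highest values were both non-deprived magnocellular.

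**Figure D4:**
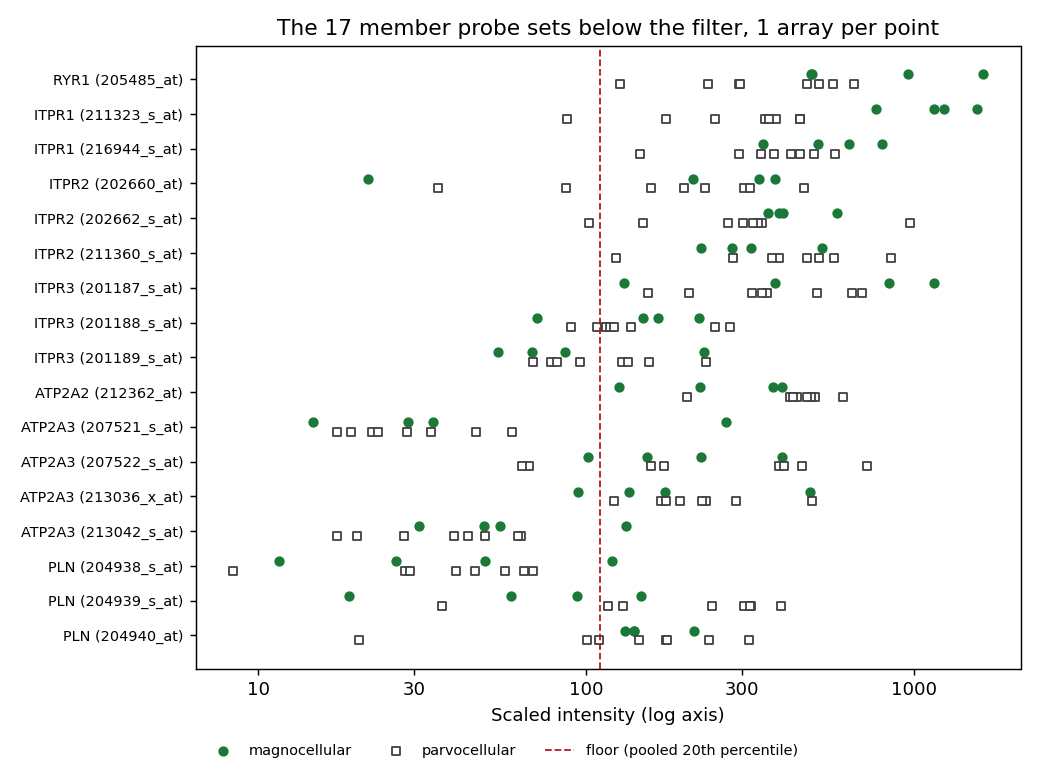
Scaled intensity (log axis) of the 17 member probe sets below the filter, 1 point per array, with filled circles for the 4 magnocellular and open squares for the 8 parvocellular arrays and a dashed line at the floor of 110.8. ITPR1 211323_s_at separates the classes, while 2 ATP2A3 and 1 PLN probe sets lie under the floor on 11 of 12 arrays.

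A wider list of 49 genes, called other store genes here, was read beside the members. It also held genes that act outside the store, such as the ATP2B pumps and TRPC channels of the plasma membrane. Of these 49, 43 were found on the array and 33 had a tested probe set (55 probe sets). None passed with deprivation or by class (limma): 0 of 55 each, beside 0.063% and 0.72% of all probe sets. With deprivation 4 had an unadjusted p under 0.05 (2 higher and 2 lower, beside 5.93% and 6.07% of all), and by class 10 did (2 higher and 8 lower in magnocellular layers, beside 5.24% and 9.35% of all). The median log2 difference was 0.04 with deprivation and -0.06 by class, beside 0.03 and -0.07 over all probe sets tested. By class 24 of 55 were positive, beside 41.5% of all probe sets tested.

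Buffers and chaperones of the reticulum had a median class difference of 0.14, with 11 of 15 probe sets positive, beside 41.5% of all. HSPA5, the chaperone BiP, averaged 5928 ± 1984 in magnocellular and 3335 ± 1117 in parvocellular layers (0.85 ± 0.26, limma adjusted p = 0.149), and RCN1, a reticulum calcium-binding protein, had -0.55 ± 0.23. Among the many alternative runs HSPA5 passed in contralateral arrays alone (1.17, limma adjusted p = 0.025) and without the non-deprived layer 6 (1.00, adjusted p = 0.035). By class 80 of all 11105 probe sets passed in the main fit, more passed in contralateral arrays alone, and the count also changed without single arrays. HSPA5 was not the only one of the wider list to pass in some run. Between hemispheres STIM1, S100A1, ITPKC and ATP2B1 215716_s_at passed without the non-deprived layer 6 (limma). HOMER1 had an interaction of -4.09 without the deprived layer 1. With deprivation the lectin chaperones CANX (-0.22 ± 0.11) and CALR (-0.33 ± 0.21) had the smallest p among the genes of this group. Their other tested probe sets did not share one sign: CANX had 0.30 (208853_s_at) and -0.18, and CALR 0.22 (200935_at) and -0.37. CASQ1, the skeletal muscle calsequestrin, had a class difference of -0.14 ± 0.30, at 669 ± 295 in magnocellular and 740.5 ± 350.2 in parvocellular layers.

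Other calcium pumps and their regulators had a median class difference of -0.37, with 11 of 14 probe sets negative. The genes tested here were the plasma membrane pumps ATP2B1 to ATP2B4, ATP2C1 and SLN. The reticulum pump ATP2A1 lay below the filter, so these values do not describe pumps that load the reticulum. Over all probe sets tested 41.5% were positive by class. Of the 14, 6 were lower at an unadjusted p under 0.05 (limma), where 9.35% of all probe sets were lower by that rule. ATP2B4, a calcium pump of the plasma membrane, averaged 943 ± 355 in magnocellular and 1356 ± 213 in parvocellular layers (-0.58 ± 0.21; -0.38 on its other tested probe set), ATP2B3 had -0.50 ± 0.21 (215911_x_at), and neither passed. With deprivation ATP2B3 had -0.40 ± 0.19 (207026_s_at; 0.15 on 215911_x_at) and SLN, sarcolipin, a small SERCA inhibitor, 0.36 ± 0.22. The probe sets of ATP2B1, ATP2B2 and ATP2C1 had class differences of both signs.

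Receptor partners had a median class difference of -0.001. ASPH, whose short forms include the junction protein junctin, had 0.58 ± 0.25 (210896_s_at) and its other tested probe set -0.57 ± 0.35. HOMER3, a scaffold that ties IP3 receptors to metabotropic glutamate receptors, had 0.54 ± 0.26. With deprivation HOMER2 had 0.43 ± 0.20 and FKBP1A, a ryanodine receptor partner, -0.36 ± 0.20 (214119_s_at; its other tested probe set 0.11). The group listed under store refilling also held TMCO1, a reticulum calcium leak channel and not itself a refilling gene. TMCO1 had -0.89 ± 0.27 by class and -0.72 ± 0.25 with deprivation on 211098_x_at (limma adjusted p = 0.271 with deprivation). Its other 3 tested probe sets had class differences from -0.084 to 0.058 and deprivation differences from -0.12 to 0.55. STIM1, the sensor of store filling, had -0.44 ± 0.30 by class, and TRPC1, a cation channel, 0.66 ± 0.42 with deprivation (205802_at; its other tested probe set -0.030). Of IP3 turnover genes INPP5A, the IP3 phosphatase, had 0.23 ± 0.16 by class and -0.19 ± 0.15 with deprivation, and ITPKC, an IP3 kinase, -0.17 ± 0.20 and -0.049 ± 0.18.

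**Figure D5:**
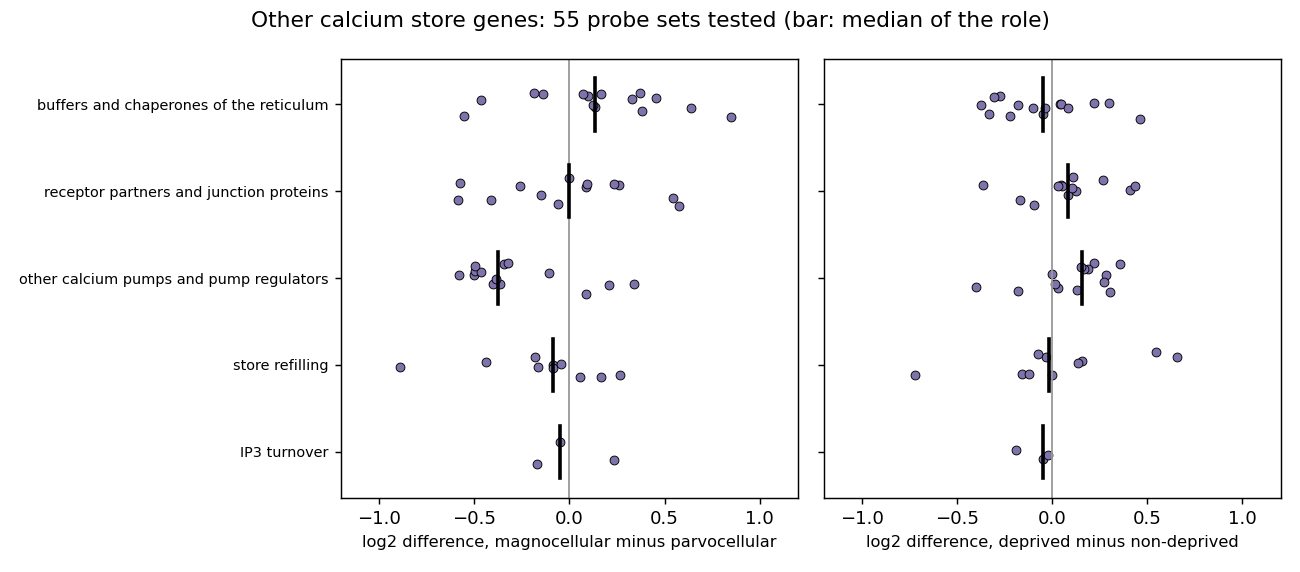
Log2 differences of the 55 tested probe sets of other calcium store genes, 1 point per probe set in rows by role (points spread vertically for legibility), magnocellular minus parvocellular on the left and deprived minus non-deprived on the right, with a black bar at the median of each role. The class medians run from -0.37 for other pumps to 0.14 for buffers and chaperones, and the deprivation medians lie between -0.049 and 0.16.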

How the data were processed

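The deposited table held 1 positive linear intensity per probe set and array, and per the labels each array was 1 LGN layer of 1 hemisphere. Which software made the values is not given in the sources used here. Since the arrays' means, trimmed by 2%, differed by at most 0.01%, the intensity values had been scaled before they were deposited. A floor was set at the 20th percentile of all arrays together (110.8), and log2 was taken. Control probe sets were dropped, and the 11105 with a mean log2 no lower than the array-wide median were fitted in limma 3.58.1 (R 4.3.3; lmFit, then eBayes allowing a trend). Terms were hemisphere, cell class and deprivation, and a second fit added the interaction of deprivation with class. Tests were two-sided, with Benjamini-Hochberg adjustment over all fitted probe sets and a threshold of 0.05. Gene names came from the platform annotation, in which 19065 probe sets named 1 gene. The fit was checked on simulated data.

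The members, lists and tests were chosen with earlier results of these data known. All member probe sets are covered. Of other store genes, those past the threshold or with the 2 smallest p in each role and comparison are named, while CASQ1, ATP2B1, ATP2B2 and ATP2C1 were named after their values were seen. For CASQ2, ITPR1 and RYR2 the 5 genes of highest Pearson correlation are given. Alternatives were other scalings, no filter, no floor, no trend, control-ratio covariates, subsets, the layer number as a block and leaving out each array. The number of arrays limits the precision.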

Additional observations from a re-analysis of the deposited data

Results flagged for a closer look

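Gaps between the most extreme array and its nearest neighbour were compared with Dixon's 95% limit in 32 groups (8 member probe sets in deprived, non-deprived, magnocellular and parvocellular arrays). Chance flags about 1 in 20 such groups, and 4 stood out. CASQ2 read 222 in the deprived ipsilateral layer 2, against 1353 to 2720 in the other deprived arrays. RYR3 read 2511 in the deprived contralateral layer 6, against 3397 to 3860 in the other deprived arrays. RYR3 read 2451 in the non-deprived ipsilateral layer 1, against 3397 to 3407 in the other magnocellular arrays. ITPR2 202661_at read 450.3 in the deprived ipsilateral layer 5, against 709.7 to 927 in the other parvocellular arrays.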

How the results depend on the processing

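Of 384 recomputed member differences (deprivation and cell class), 353 kept their sign and side of the threshold, 29 changed sign and 2 moved by more than the spread. No tested member difference passed under any alternative run (the CASQ2 and ITPR1 class differences have no test). The 2 that moved were the CASQ2 class difference without the deprived layer 2 (-1.39) and without both arrays whose GAPDH ratio was highest (-1.38); over all alternatives it lay between -2.34 and -1.38 and that of ITPR1 203710_at between 1.07 and 1.50. All sign changes were in differences that did not pass, and their cause was not tested. With deprivation CASQ2 had 0.033 with the GAPDH ratio, 0.21 with those 2 arrays left out, 0.10 in parvocellular layers, 0.30 in contralateral arrays and -0.29 to 0.25 without single arrays. In contralateral arrays RYR2 207557_s_at had -0.025 and ATP2A2 212361_s_at 0.064, and ITPR2 202661_at had -0.40 to 0.016 without single arrays. By class RYR2 207557_s_at had 0.57 in deprived arrays and -0.998 to 0.25 without single arrays. RYR2 214044_at had 0.45 with the ACTB ratio, 0.079 without the 2 arrays, 0.40 in contralateral arrays and -0.28 to 0.083 without single arrays. RYR3 had -0.050 with the GAPDH ratio, -0.091 with the ACTB ratio, -0.27 in ipsilateral arrays and -0.12 to 0.15 without single arrays. ITPR2 202661_at had 0.075 in ipsilateral arrays. ATP2A2 209186_at had 0.035 with the ACTB ratio, 0.060 without the 2 arrays, 0.36 in contralateral arrays and -0.39 to 0.041 without single arrays, and ATP2A2 212361_s_at had -0.17 with the ACTB ratio.

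Over all probe sets, 7 passed with deprivation. The count was 0 with median centring or ipsilateral arrays alone, 1 with no filter, no trend or the GAPDH ratio, 2 after quantile normalization, 3 under the replicate block (layer number) or with those 2 arrays left out, 4 in parvocellular layers, 60 in contralateral arrays and 0 to 43 without single arrays. By class 80 passed, and the count was 49 with quantile normalization, 31 with median centring, 24 with no filter, 41 with no trend, 4 with the ACTB ratio, 26 without the 2 arrays, 5 in deprived, 2 in non-deprived, 0 in ipsilateral and 164 in contralateral arrays, and 17 to 188 without single arrays. The deprived and non-deprived arrays of a layer came from opposite hemispheres. Their deviations from the group means correlated at -0.25 to -0.0016, none best with its own layer. Hemisphere was not taken out of these deviations, so they cannot show whether the arrays of a layer are alike. The block changed no member's call. Median centring shifted the median of all probe sets by -0.14 with deprivation and -0.32 between hemispheres.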
